A study of Mus musculus with 11 samples.

Results

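The cartilage matrix genes examined were 10 genes whose signal was raised in oligodendrocytes lacking Myrf: Matn1, Acan, Cnmd, Papss2, Chst11, Col2a1, Col9a1, Col9a3, Col11a1 and Col11a2. They were taken as every probe set annotated to 1 of these genes and to no other gene, which gave 18 of the 45101 probe sets on the array. A probe set that names Chst11 together with another gene was left out. The genes were picked because they were higher in knockout than in control oligodendrocytes, so that difference is given as a description and without a test.

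RNA came from cultured mouse cells of the oligodendrocyte lineage on 11 Affymetrix Mouse Genome 430 2.0 arrays. The starting cells were oligodendrocyte progenitors (OPCs) of postnatal day 7 brains, depleted of microglia with BSL1 and then selected by antibody to PDGFRα. Knockout oligodendrocytes, labelled MRF CKO, were MRF fl/fl, Olig2 wt/cre (n = 3). Control oligodendrocytes were littermates of genotype MRF wt/fl; Olig2 wt/cre (n = 4), so both groups carried the Cre allele in 1 copy of Olig2, and the controls also carried 1 floxed copy of Myrf. Cre driven from Olig2 is made in cells of the oligodendrocyte lineage, and in bulk cultures the share of cells that lost Myrf was not given. Both groups were differentiated for 4 days in T3 at 40 ng/ml without PDGF-AA. The OPCs (n = 4) were kept for 6 days in PDGF-AA at 10 ng/ml. B27 was at 2% for all 11 samples. The labels of the OPCs say control without a genotype. Nothing in the labels says that replicates were separate cultures or animals, so p-values measure the spread between these arrays, which may be technical.

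Cartilage is a matrix of collagen II fibrils, stabilised by the minor collagens IX and XI, filled with the chondroitin sulfate proteoglycan aggrecan and linked by proteins such as matrilins. In chondrocytes the genes of this matrix are switched on together by the transcription factor Sox9 with its partners Sox5 and Sox6. The same Sox factors are made in oligodendrocyte progenitors, where they act on the timing of differentiation. Myrf is the factor that oligodendrocytes need to make myelin.

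Each array had been scaled by the authors to a trimmed mean of 500. A signal of 200 or more was found for 15100 to 17130 probe sets, depending on the array. Myrf itself, read by 1 probe set whose place relative to the deleted exons was not checked, had signals of 2849, 1904 and 2223 in knockout arrays and of 6215.0 to 7517 in control arrays. OPC replicate 2 stood apart from the other OPCs. It had Myrf at 6848 where the others lay between 752 and 1135, and Cspg4, a progenitor proteoglycan, at 1131 where the others lay between 3506 and 3850. The ratio of the 5′ to the 3′ Gapdh control probe sets, a measure of RNA length, was 1.26 to 1.41 in the oligodendrocyte arrays and 0.332, 1.23, 1.15 and 0.12 in OPC replicates 1 to 4. Values against OPCs are therefore also given without replicate 2 where the log2 difference moves by over 0.3, and the tests were repeated on OPC replicates 2 and 3 only, an alternative chosen after seeing the data.

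Promoter sequence was available for 8 of the 10 genes, with 10 start sites in all, from RefSeq on GRCm38.p6. Col2a1 and Col9a3 are named only. The 250 bases before each start were searched for the SOX core ACAAT and the related ACAAAG, the Myrf core CTGGCAC and its variant CTGGTAC on both strands, and for the TATA box TATAAA on the gene's strand. Of these motifs none overlaps another. Matn1, the gene with the largest difference, is shown with the only windows that held any of them, the second start of Papss2 and that of Col11a2. Capitals mark the matches, and all are read 5′ to 3′ on the plus strand, which is the strand of each gene.
Matn1, chr4:130944135-130944384: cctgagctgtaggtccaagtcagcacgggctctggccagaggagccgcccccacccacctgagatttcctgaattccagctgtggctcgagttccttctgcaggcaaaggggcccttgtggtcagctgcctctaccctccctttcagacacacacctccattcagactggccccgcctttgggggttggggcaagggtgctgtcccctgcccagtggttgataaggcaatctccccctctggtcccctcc
Papss2 second start, chr19:32619755-32620004: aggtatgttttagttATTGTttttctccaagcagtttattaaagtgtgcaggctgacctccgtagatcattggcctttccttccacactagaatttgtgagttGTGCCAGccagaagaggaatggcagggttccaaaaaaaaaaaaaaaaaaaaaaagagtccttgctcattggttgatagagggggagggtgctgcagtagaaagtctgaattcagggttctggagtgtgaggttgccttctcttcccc
Col11a2, chr17:34038888-34039137: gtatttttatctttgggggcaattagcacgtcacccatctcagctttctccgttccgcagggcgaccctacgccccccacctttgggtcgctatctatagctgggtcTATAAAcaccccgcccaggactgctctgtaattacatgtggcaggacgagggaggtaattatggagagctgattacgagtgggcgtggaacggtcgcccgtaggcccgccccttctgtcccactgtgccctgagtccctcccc

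The Papss2 window held the SOX core on the reverse strand, from 235 to 231 bases before the start, and CTGGCAC on the reverse strand, from 147 to 141 bases before it. The Col11a2 window held TATAAA from 143 to 138 bases before the start. Among the 32851 promoters of the same table and window length, 27.7% held the SOX core, 16.5% held ACAAAG, 4.19% held CTGGCAC, 1.83% held CTGGTAC and 7.59% held TATAAA. The SOX core and CTGGCAC were thus each in 1 of the 8 genes, as was TATAAA, while ACAAAG and CTGGTAC were in 0. These matches describe letters and are no evidence of binding, and an absent match says only that the letters are not in the window. The windows differed in base composition, with a GC content of 74.4% for Acan, 62% for Matn1, 57.6% for Col11a2 and 43.2% for the Papss2 start shown, against a median of 52.4% over all promoters.

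In the oligodendrocyte arrays each of the 10 genes was higher in all 3 knockout arrays than in all 4 control arrays. The median log2 difference of the 10 was 2.41, against 0.03 over the 10069 genes tested. Every knockout array lay above every control array for 17.4% of the genes tested, and limma called 3.64% of them higher in knockout at an adjusted p under 0.05. Since this contrast chose the genes, nothing is read from those shares. All 10 genes passed the filter of a signal of 200 on 3 arrays, through 14 of their 18 probe sets. Matn1, Acan and Papss2 passed only through the knockout arrays, and Cnmd passed through these and 1 control array, so these 4 could pass only if they were high there. The lowest log2 difference was that of Chst11 at 1.56 and the next that of Cnmd at 1.66. In bulk RNA, fewer cells that make a transcript and less transcript per cell cannot be told apart.

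The collagens formed the largest group. Col2a1, the chain of the main cartilage fibril, had signals of 2615, 2700.0 and 3263 in the knockout arrays. In the control arrays it had 447, 285, 8.2 and 364. The OPC arrays were at 4.5, 10.1, 6.2 and 8.3. Control replicate 3 stood far below the other controls and within the OPC range, and no control array came near the knockout arrays. Knockout exceeded control by 3.92 ± 0.79 on the log2 scale (SE), or 15.1-fold, which was 7.62-fold without control replicate 3 and 10.9-fold when every signal under 100 was set to 100. Differences here and below are of log2(signal + 16), which understates the change of dim genes.

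Col9a1 and Col9a3 encode chains of collagen IX, which coats the fibril and links it to other matrix. Col9a1 had signals of 9824, 7757 and 8491 in knockout arrays, of 1337, 2299, 351 and 2179 in control arrays, and of 1117, 3911, 971 and 1002 in OPC arrays. Knockout arrays were above all others, while control and OPC arrays overlapped. The knockout to control difference was 2.78 ± 0.61 on the log2 scale, 6.87-fold, and 4.56-fold without control replicate 3. The other Col9a1 probe set gave 2.68, or 6.40-fold. Col9a3 had 2444, 3501 and 1789.9 in knockout, 645, 527, 364 and 568 in control, and 236, 211, 235 and 151 in OPC arrays. These 3 groups were in separate ranges, in that order. Its knockout to control difference was 2.23 ± 0.26, or 4.71-fold, and its next probe set gave 3.39-fold. The remaining Col9a3 probe set was dim on all arrays and its groups overlapped. Col9a2, the remaining collagen IX chain and not among the 10 genes, did not pass the filter. Its signals, looked up after the others were seen, were 101, 137 and 72.3 in knockout arrays and 4.8 to 31.8 in control arrays.

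Col11a1 and Col11a2 encode chains of collagen XI, which sits inside the fibril and limits its width. Col11a1 had 12502, 11425 and 13731 in knockout arrays, 3601, 4023, 1714 and 5560 in control arrays, and 7782, 13614, 15596 and 5604 in OPC arrays. OPC arrays were all above the control arrays and spanned the range of the knockout arrays. The knockout to control difference was 1.86 ± 0.39, or 3.64-fold, and 3.58-fold by the other probe set. Col11a2 had 1648, 2628 and 2148 in knockout, 430, 369, 330 and 347 in control, and 55.6, 163, 22.1 and 30.8 in OPC arrays. For Col11a2 the OPC arrays were thus the lowest and no groups overlapped. Its knockout to control difference was 2.47 ± 0.42, or 5.53-fold.

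The matrix proteins other than collagen were dim outside the knockout. Matn1, matrilin 1, which bridges collagen fibrils and aggrecan, had signals of 4953, 6102 and 3192 in knockout arrays. Its control arrays had 41.1, 152, 14.7 and 78.5, and its OPC arrays 3.0, 52.2, 19.6 and 14.8. The mean ± SD was 4749 ± 1466 (n = 3) in knockout and 71.5 ± 59.4 (n = 4) in control arrays. The log2 difference was 5.99 ± 0.55, a fitted 63.4-fold, or 41.3-fold with signals under 100 set to 100. This was the largest difference among the 10 genes. Acan, the core protein of aggrecan, had 913, 511 and 496 in knockout, 107, 78.0, 15.5 and 47.7 in control, and 44.4, 26.8, 46.1 and 42.9 in OPC arrays. The highest array outside the knockout was the control array at 107. The log2 difference was 3.18 ± 0.43, a fitted 9.08-fold, or 6.03-fold against the signal of 100. Cnmd, chondromodulin, a cartilage glycoprotein that hinders vessel growth, had 358, 639 and 377 in knockout, 130, 202, 60.4 and 168 in control, and 8.0, 25.5, 2.6 and 15.8 in OPC arrays. All 4 controls were above all 4 OPCs and below the knockout arrays. The knockout to control difference was 1.66 ± 0.42, or 3.16-fold, the smallest of the 10 after that of Chst11.

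A pair of genes act in sulfation. Papss2 makes the activated sulfate donor used to sulfate aggrecan, and Chst11 transfers sulfate to chondroitin. Papss2 had 293, 503 and 318 in knockout, 76.8, 105, 25.7 and 46.7 in control, and 5.7, 22.7, 18.8 and 8.4 in OPC arrays by its brightest probe set. The knockout to control difference was 2.36 ± 0.42, a fitted 5.12-fold, or 3.56-fold against the signal of 100. None of the other 3 Papss2 probe sets passed the filter, and in 1 of them the knockout and control arrays overlapped (log2 difference 0.13), while the other two gave 1.88 and 1.97. Chst11 had 5341, 5375 and 5349 in knockout, 1799, 2108, 1350.0 and 2047 in control, and 5497, 2521, 6613 and 8416 in OPC arrays. The control arrays were lower than both other groups. The knockout to control difference was 1.56 ± 0.33, or 2.96-fold, and 2.63-fold by the second probe set, which had 394, 742 and 466 in knockout and 119 to 248 in control arrays.

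**Figure D1:**
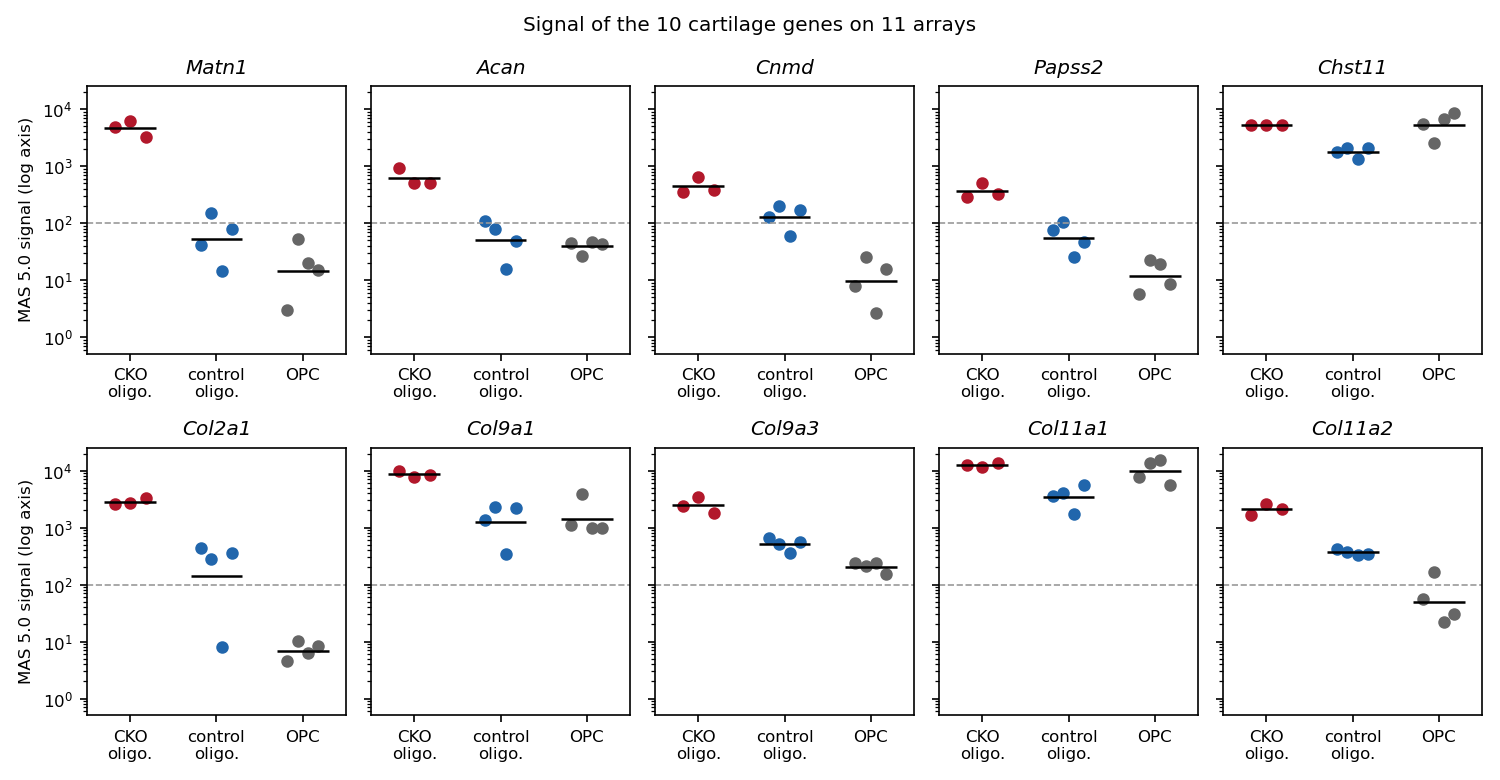
MAS 5.0 signal (log axis) of the brightest probe set of each of the 10 genes on the 3 knockout, 4 control and 4 OPC arrays; points are arrays, bars are geometric means, and the dashed line marks a signal of 100. Knockout arrays lie above control arrays in every panel, while OPC arrays lie under 100 for Matn1, Acan, Cnmd, Papss2 and Col2a1 and above the control arrays for Chst11 and Col11a1.

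Control replicate 3 was the lowest control array in all 10 genes, and in 17 of the 18 probe sets. Of the 7 oligodendrocyte arrays it had the lowest median signal, 60.5, and the fewest probe sets at 200 or more, 16048. It was also the lowest of these arrays in the summed signal of 4 of 10 lists of cell type markers. Its sum of oligodendrocyte markers, 60336, lay within the range of the other controls, 52161 to 64978. Smooth muscle and pericyte markers summed to 566 there and to 1346 to 1817 in the other controls, and astrocyte markers to 57115 and to 68560 to 78716. Progenitor markers summed to 9744 there and to 12368 to 16042 in the other controls, and chondrocyte markers other than the 10 genes to 183 and to 260.0 to 414. Their part in the values of that array was not tested. Leaving out 1 array changed the knockout to control fold by over 1.5 times only where control replicate 3 was left out, for Col2a1 and Col9a1 as given above.

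Set against OPCs, the controls show how these genes moved in ordinary differentiation, a contrast that did not choose them but that shares the control arrays with the one that did. By limma with Benjamini-Hochberg adjustment over all genes, 5 of the 10 were higher in control oligodendrocytes than in OPCs, 2 were lower and 3 did not pass. Among the 10069 genes tested, the shares were 24.4% higher and 29.6% lower. Matn1, Acan, Papss2 and Cnmd were among the genes tested only because of the knockout arrays, wholly or in part. Cnmd and Papss2 are in the 5, so nothing is read from these counts against the shares. The choice of the genes also favoured low control arrays. The calls and p-values of the 10 in this contrast are therefore a description and no independent support. The 10 had a median log2 difference of 1.17, where that of all genes was -0.09. Every control array was above every OPC array for Cnmd, Papss2, Col9a3 and Col11a2, which is 4 of 10 where 20.1% of all genes had this (for Papss2 mostly between signals under 100), and below every OPC array for Chst11 and Col11a1, which is 2 of 10 where 23.7% had this.

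Of the 5 higher genes, Cnmd, Papss2 and Col2a1 had every OPC array under 100. Cnmd rose by 2.39 ± 0.38 on the log2 scale (limma adjusted p = 0.00038, 9.19e-05 to 0.00442 over 16 alternatives), at least 1.45-fold over a signal of 100. Col2a1 rose by 3.03 ± 0.73 (limma adjusted p = 0.00451, 5.12e-07 to 0.0346), at least 2.61-fold, with control replicate 3 at 8.2 inside the OPC range. Without that array the log2 difference of Col2a1 was 4.02. Col11a2 rose by 2.47 ± 0.39 (limma adjusted p = 0.000358, 1.11e-06 to 0.00623), with 3 of its 4 OPC arrays under 100. With signals under 100 set to 100 it was 3.25-fold higher, and without OPC replicate 2 its log2 difference was 2.93. Col9a3 rose by 1.26 ± 0.24 (limma adjusted p = 0.00124, 0.000453 to 0.0106), or 2.40-fold. Papss2 also passed, at 1.34 ± 0.39 (limma adjusted p = 0.0117, 0.00387 to 0.0985 over the alternatives), but not on OPC replicates 2 and 3 only (0.0985) nor with the replicate block (0.0547). No fold is given for Papss2, since all but 1 control array were under 100.

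The 2 lower genes were Chst11 and Col11a1. Chst11 fell by 1.54 on the log2 scale (SE 0.30, limma adjusted p = 0.00139), or 2.91-fold, with every control array under every OPC array, and by 1.90 without OPC replicate 2. Its probe sets disagreed. The second one was higher in control arrays than in OPC arrays by 0.75, and with the mean of both the log2 difference was -0.40 (limma adjusted p = 0.251, the highest of 16 alternatives that start from 4.34e-06). Col11a1 fell by 1.51 on the log2 scale (SE 0.37, limma adjusted p = 0.00467, 0.000601 to 0.0288), or 2.85-fold. For Col11a1 both probe sets had every control array under every OPC array.

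The 3 that did not pass were Matn1, Acan and Col9a1. Matn1 differed by 1.07 ± 0.51 (limma adjusted p = 0.092), with every OPC array and all but 1 control array under 100. It passed without control replicate 3, at an adjusted p of 0.02 by limma, and without OPC replicate 2, at 0.0236. Acan differed by 0.32 ± 0.40 (limma adjusted p = 0.514). Col9a1 differed by -0.21 ± 0.57 (limma adjusted p = 0.776). Its OPC values held 3911 in replicate 2 against 971 to 1117 in the others, and the difference was 0.27 without that array and 0.39 without control replicate 3. Matn1 had a difference of 1.40 without OPC replicate 2. Without that array 6 of the 10 genes were higher and 2 lower, where 2807 of all 10069 genes were higher and 3312 lower. On OPC replicates 2 and 3 only, 4 were higher and 2 lower, where 2005 of all genes were higher and 2283 lower.

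The knockout oligodendrocytes were set against the same OPCs, a contrast that shares the knockout arrays with the one that chose the genes and the OPC arrays with the last one. The 10 had a median log2 difference of 3.60, where that of all genes was -0.05. Every knockout array was above every OPC array for 8 of the 10, as for 23.5% of all genes, and limma called 23.8% of all genes higher and 26.8% lower. Since the genes were chosen for high knockout arrays, nothing is read from the 8 against those shares. Matn1, Acan, Papss2 and Cnmd passed the filter wholly or partly through the knockout arrays, so their differences between knockout and OPC arrays are given without a test. Of the 6 genes that pass without the knockout arrays, limma called 4 higher and 0 lower in knockout than in OPCs, and Chst11 and Col11a1 did not pass. The choice of the genes favoured high knockout arrays here too. These calls and the p-values below are therefore a description and no independent support.

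Matn1 was at least 45.9-fold higher in the knockout arrays than the signal of 100 that no OPC array reached (log2 difference 7.06 ± 0.55, and 7.39 without OPC replicate 2). On that basis Acan was at least 6.14-fold higher (3.51 ± 0.43), Cnmd at least 4.42-fold (4.05 ± 0.42) and Papss2 at least 3.61-fold (3.70 ± 0.42). Each OPC array was under 100 in all of these.

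Col2a1 was at least 28.5-fold higher than the same signal of 100 (6.95 ± 0.79, limma adjusted p = 3.73e-05, at most 0.00102 over 15 alternatives). Col11a2, with 3 of 4 OPC arrays under 100, was 18.6-fold higher with signals under 100 set to 100 (4.94 ± 0.42, limma adjusted p = 4.87e-06, at most 0.00135), and its log2 difference was 5.40 without OPC replicate 2. The remaining collagens had OPC signals above 100 on all arrays. Col9a3 was 11.3-fold higher (3.50 ± 0.26, limma adjusted p = 1.8e-06, at most 0.00135). Col9a1 was 5.96-fold higher (2.58 ± 0.61, limma adjusted p = 0.00449, at most 0.0482), with a log2 difference of 3.05 without OPC replicate 2. Col11a1 differed by 0.35 ± 0.39 (limma adjusted p = 0.477) and by -0.22 on OPC replicates 2 and 3 only. Chst11 differed by 0.02 ± 0.33 (limma adjusted p = 0.96), by -0.33 without OPC replicate 2, and by 1.08 with the mean of its probe sets (limma adjusted p = 0.0113).

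**Figure D2:**
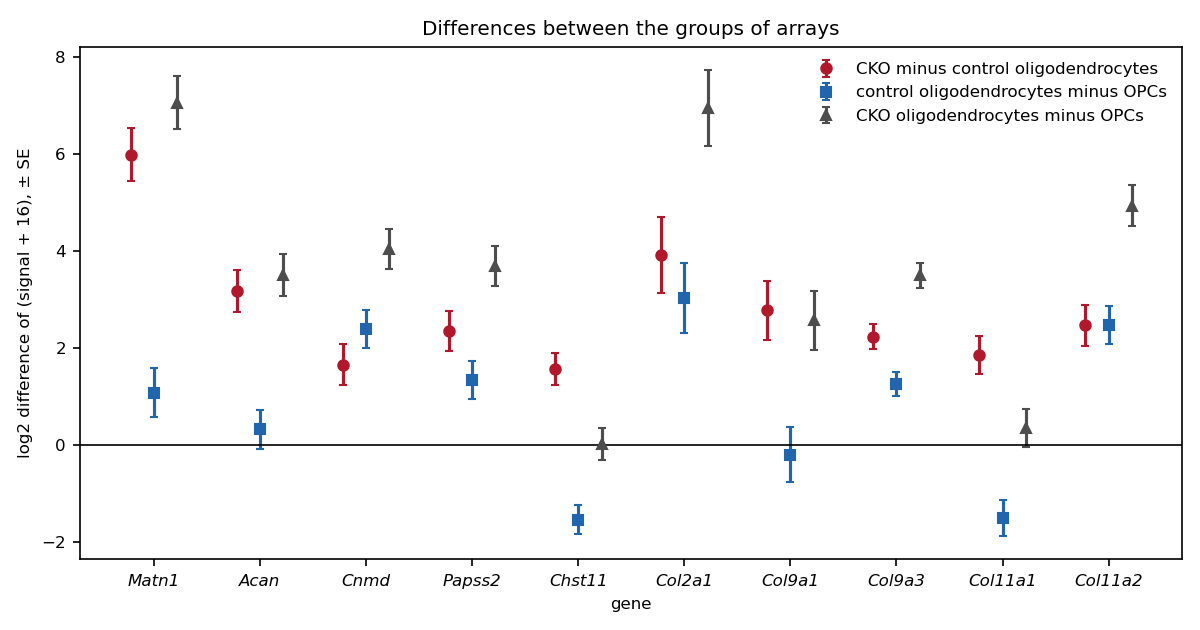
Log2 difference of (signal + 16) with its standard error for the 10 genes, for knockout minus control oligodendrocytes (circles), control oligodendrocytes minus OPCs (squares) and knockout oligodendrocytes minus OPCs (triangles). Chst11 and Col11a1 sit near 0 in the last contrast, at 0.02 and 0.35, and are negative for controls against OPCs. Matn1, Acan, Cnmd, Papss2, Col2a1, Col9a3 and Col11a2 are positive in all 3 contrasts, though Matn1 and Acan did not pass for controls against OPCs.

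The order of the groups therefore divided the 10 genes. Cnmd, Col9a3 and Col11a2 had OPC arrays lowest, control arrays between and knockout arrays highest, with no overlap. Papss2 had the knockout arrays highest, and its control and OPC arrays, all but 1 under 100, are left without an order. Col2a1 had that order except for control replicate 3, which lay within the OPC range. Matn1, Acan and Col9a1 had control and OPC arrays that did not differ by the test and knockout arrays above both. Col11a1 had controls lowest, with knockout and OPC arrays that did not differ by the test. Chst11 had this order by its brightest probe set only. By the second, every knockout array was above every control and OPC array, and the OPC arrays, at 53.0, 83.3, 202 and 124, overlapped the controls.

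How closely each gene followed the mean of the other 9 over the 11 arrays is given as a description because the arrays share their groups and the groups chose the genes. Pearson's r was 0.977 for Matn1, 0.97 for Papss2, 0.958 for Col9a3, 0.944 for Acan and 0.941 for Col2a1. It was 0.881 for both Cnmd and Col11a2 and 0.869 for Col9a1. It was lowest for Col11a1, at 0.372, and Chst11, at 0.152. The other genes on the array with the most similar course over the 11 arrays to the mean of the 10 were Adam23 (r = 0.991), Gm17586 (r = 0.989), Rnf128 (r = 0.988), Prkca (r = 0.985), Niban2 (r = 0.981), Rsph9 (r = 0.98), Wwp2 (r = 0.979) and Tmco3 (r = 0.977). Rnf128, a ubiquitin ligase, had mean signals of 4338 ± 359 in knockout (SD, n = 3), 259.9 ± 100.3 in control (n = 4) and 134 ± 46.4 in OPC arrays (n = 4). Adam23, a cell surface protein of the ADAM family, had 957 ± 138, 223 ± 73.8 and 111 ± 26.2 in the same order.

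Other genes of cartilage were counted from 6 lists of 177 genes, of which 165 had a probe set and 93 passed the filter. Of these 93, limma called 15 higher and 3 lower in knockout than in control oligodendrocytes, and 75 did not pass, where 3.64% of all genes were higher and 3.88% lower. The 93 had a median of 0.42 on the log2 scale. The lists were drawn up with earlier results of these data known. A listed gene could also pass the filter through the 3 knockout arrays alone, which was not checked. Nothing is therefore read from the list counts against the shares over all genes. The replicate number was also used as a block, in a fit to these groups only. It left out control replicate 4, whose number no knockout array has. There 35 of the 93 were higher and 5 lower, where 1307 of all 10069 genes were higher and 930 lower. Counts with the replicate block in the lists below, of cartilage genes and of markers, have this background. Knockout and control arrays fitted alone without the block gave 33 calls in all, against 1587 over all genes. With 1 array left out the calls numbered 8 to 15: 9, 10 and 8 without knockout replicates 1, 2 and 3, and 11 without control replicate 1 or 3. Of the 18 calls, 6 higher and 2 lower held under all 14 alternatives.

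Of 39 other cartilage matrix proteins with a probe set, 10 passed the filter. Of these 10, 2 were higher and 1 lower, with a median log2 difference of 0.94 (6 higher and 1 lower with the replicate block). Col27a1, a fibril collagen of cartilage, had 1057, 1150.4 and 1198 in knockout and 462, 357, 629 and 462 in control arrays, and was 2.37-fold higher (log2 1.25 ± 0.21, limma adjusted p = 0.00289, at most 0.0213 over 14 alternatives). Edil3, a matrix protein that binds integrins, was 7.34-fold higher (2.88 ± 0.37, limma adjusted p = 0.000571, at most 0.00826), with 2716, 2517 and 1390 in knockout against 188 to 556 in control arrays. Crtac1, cartilage acidic protein, was a fitted 6.87-fold lower and fell by 2.78 on the log2 scale (SE 0.42, limma adjusted p = 0.00184, at most 0.012). It had 87.3 to 93.2 in knockout, all under 100, against 449 to 1482 in control arrays. Its log2 difference was -2.34 at a pseudocount of 64 and -2.97 at 1. The matrilins Matn4 and Matn2, picked out after their values were seen, did not pass, at 0.95 ± 0.52 (limma adjusted p = 0.328, 0.0436 to 0.687 over 14 alternatives) and 0.76 ± 0.37 (limma adjusted p = 0.268, 0.0401 to 0.516). With the replicate block they did pass, at 0.0436 and 0.0401.

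Among 40 regulators of cartilage formation with a probe set, 23 passed the filter. Of these 23, 3 were higher and 1 lower, with a median of 0.60, and with the replicate block 11 were higher and 1 lower. Sox5 had 566, 609 and 842 in knockout and 139 to 217 in control arrays. It was 3.47-fold higher (log2 1.80 ± 0.38, limma adjusted p = 0.0126, and 0.0684 without knockout replicate 3). Sox6 was 2.72-fold higher (1.44 ± 0.37, limma adjusted p = 0.0368), a call that was lost when any knockout array or control replicate 1 or 3 was left out (0.0751 to 0.16). Sox5 and Sox6 are the partners of Sox9. Sox9 itself, picked out after its values were seen, had overlapping groups, with 935, 1475 and 2017 in knockout and 603, 765, 660 and 1460 in control arrays. It differed by 0.77 ± 0.58 (limma adjusted p = 0.491, 0.0172 to 0.737 over 14 alternatives, the lowest with the replicate block). Wwp2, a ubiquitin ligase whose gene carries a microRNA of cartilage, was 5.56-fold higher (2.48 ± 0.25, limma adjusted p = 0.00014, at most 0.00236). Ptch1, the Hedgehog receptor, fell by 0.66 on the log2 scale (SE 0.18, limma adjusted p = 0.0479), a call that was lost under 9 of 14 alternatives (0.0502 to 0.186), among them leaving out any 1 of the knockout or control arrays.

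Chondroitin sulfate synthesis and sulfation had 28 genes with a probe set, and 22 passed the filter. Of these 22, limma called 4 higher and 0 lower (5 and 1 at an unadjusted p under 0.05), with a median of 0.33. These 4 stand beside Papss2 and Chst11 in that path. Slc26a2, the sulfate transporter, was 2.98-fold higher (log2 1.58 ± 0.25, limma adjusted p = 0.00242, at most 0.0183). Csgalnact1, which starts the chondroitin chain, was 3.49-fold higher (1.80 ± 0.29, limma adjusted p = 0.00259, at most 0.0185), with 584, 630.4 and 654 in knockout and 119 to 227 in control arrays. Chsy1, which lengthens the chain, was 2.37-fold higher (1.25 ± 0.33, limma adjusted p = 0.0406), and Fam20b, a kinase of the linker sugar, was 1.69-fold higher (0.76 ± 0.18, limma adjusted p = 0.0218). The calls of Chsy1 and Fam20b were lost under 7 and 6 of 14 alternatives, with adjusted p up to 0.156 and 0.116. Among these were leaving out knockout replicate 1 or 3 or control replicate 1, 2 or 3, and for Chsy1 also knockout replicate 2.

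Collagen processing had 32 genes with a probe set, and 24 passed the filter. Of these 24, limma called 5 higher and 0 lower (7 and 0 at an unadjusted p under 0.05, 8 and 0 with the replicate block), with a median of 0.37. Tgm2, a transglutaminase that crosslinks matrix, was 4.62-fold higher (log2 2.21 ± 0.40, limma adjusted p = 0.00506, at most 0.0352). The others were the prolyl hydroxylase subunits P4ha1 (1.15 ± 0.25, limma adjusted p = 0.0156) and P4ha3 (1.12 ± 0.31, 0.0474), the lysyl hydroxylase Plod2 (1.55 ± 0.42, 0.0443) and Sec24d, of the vesicle coat that exports procollagen (0.60 ± 0.14, 0.0259). The calls of P4ha1, P4ha3, Plod2 and Sec24d were lost when any 1 knockout array was left out, with limma adjusted p up to 0.189, 0.273, 0.166 and 0.105 over 14 alternatives. Leaving out any 1 control array also ended those of P4ha3 and Plod2, and leaving out control replicate 1, 2 or 3 that of Sec24d.

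Among 17 proteases of the cartilage matrix and their inhibitors with a probe set, 12 passed the filter. Of these 12, 1 was higher and 1 lower, and 3 and 3 with the replicate block. Adamts4, an aggrecanase, which cuts the product of Acan, was 9.79-fold lower and fell by 3.29 on the log2 scale (SE 0.51, limma adjusted p = 0.00209, at most 0.0151). Its signals were 1152, 875 and 1067 in knockout, 11557, 8895, 12749 and 8154 in control, and 301, 1748, 488 and 236 in OPC arrays. The knockout arrays were thus far below the controls and, but for OPC replicate 2, above the OPCs. Timp4, an inhibitor of metalloproteases, was 2.56-fold higher (1.36 ± 0.34, limma adjusted p = 0.0303), and the call was lost under 6 of 14 alternatives, with leaving out any 1 knockout array or control replicate 3 or 4 among them (up to 0.15). Of the 9 genes of hypertrophic cartilage and bone with a probe set 2 passed the filter, and limma called 0 of them (0 at an unadjusted p under 0.05, 1 higher with the replicate block).

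**Figure D3:**
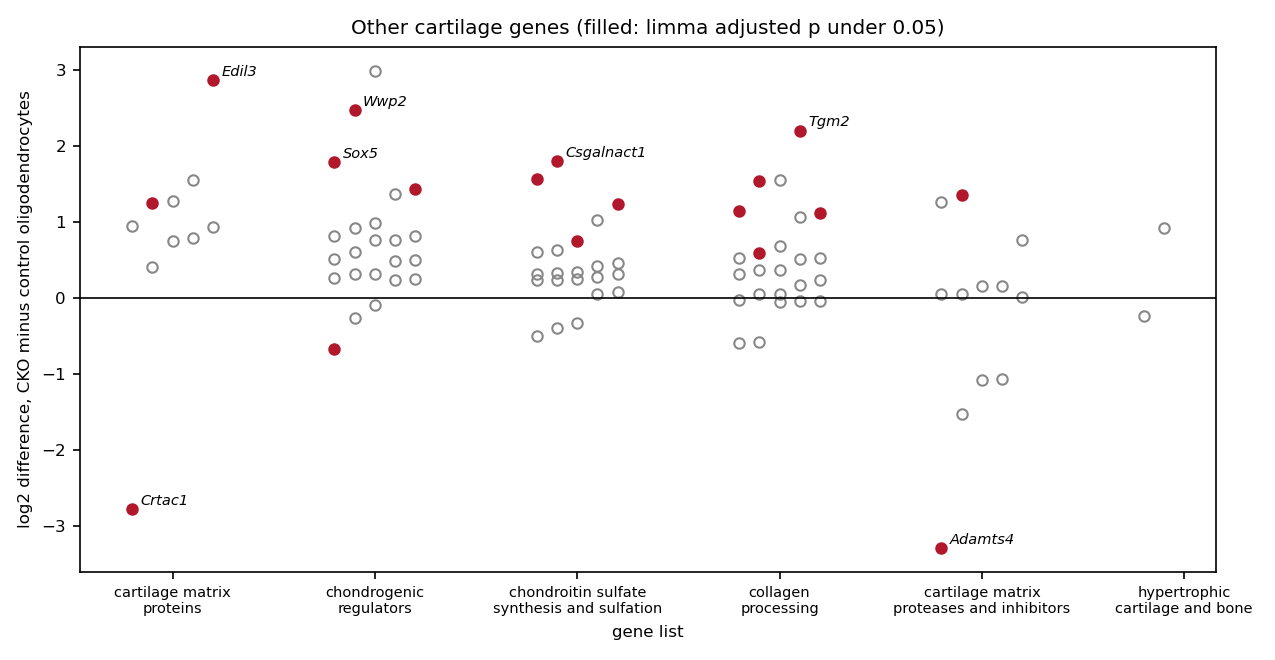
Log2 difference of knockout minus control oligodendrocytes for the 93 other cartilage genes that passed the filter, by list; filled points have a limma adjusted p under 0.05, and open points do not. Most points are open, and the filled ones include Edil3 at 2.88 and Wwp2 at 2.48 above 0 and Adamts4 at -3.29 and Crtac1 at -2.78 below 0.

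Markers of cells that could have been in the cultures were read on the same arrays. Of 10 further chondrocyte markers with a probe set, Comp, Col10a1, Matn3, Chad, Cytl1, Hapln1, Epyc and Prg4 stayed under 100 on all 11 arrays. The remaining pair were Ucma and Snorc, and Snorc had 316, 246 and 141 in knockout and 6.8 to 96.6 in control arrays. The summed signal of the 10 was 392 to 564 in knockout, 183 to 414 in control and 162 to 242 in OPC arrays, and none of them passed the filter.

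The 10 astrocyte markers summed to 86995 to 94458 in knockout, 57115 to 78716 in control and 5879 to 10903 in OPC arrays, so every knockout array was above every control array. By limma 0 of the 10 passed between knockout and control (2 were higher at an unadjusted p under 0.05, and 7 with the replicate block), with a median log2 difference of 0.53. Gfap, 1 of these 10 markers, had 16477, 15352 and 16881 in knockout and 14658 to 17212 in control arrays, and 61.8 to 100.3 in OPC arrays. In controls against OPCs 9 of the 10 were higher. The part of astrocytes in the cartilage gene values was not tested.

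Smooth muscle and pericyte markers summed to 3316 to 4634 in knockout, 566 to 1817 in control and 161 to 448 in OPC arrays, with Myh11 under 100 throughout. Tagln, an actin-binding protein, was higher in knockout by 2.58 ± 0.59 (limma adjusted p = 0.0188), a call that was lost when any 1 knockout array was left out (0.0574 to 0.095). Its difference was 1.89 without control replicate 3. Acta2 did not pass, at 1.13 ± 0.43 (limma adjusted p = 0.147, 0.0658 to 0.353 over 14 alternatives). Fibroblast markers summed to 173 to 2244 in knockout and 189 to 451 in control arrays, and the highest was knockout replicate 3, with Col1a2 at 829 and Col3a1 at 956. Col1a1, Lum, Pdgfrb and Dpt were under 100 on all arrays. Of the cartilage genes, Col2a1 and Col11a1 had their highest knockout signal in that array, and Matn1, Acan and Col9a3 their lowest. The part of these cells in the result was not tested.

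Oligodendrocyte markers, of which 4 of 5 had a probe set, summed to 34243 to 39515 in knockout and 52161 to 64978 in control arrays. By limma 2 of the 4 were lower and 0 higher in knockout than in control. The median log2 difference of the 4 was -2.51, and 2 were lower under each of 14 alternatives. In OPC replicates 1 to 4 these markers summed to 12123, 49561, 37467 and 17576. OPC replicates 2 and 3, the arrays kept in the alternative chosen after seeing the data, were thus the highest OPCs in these markers. Progenitor markers summed to 16839 to 20409 in knockout, 9744 to 16042 in control and 24702 to 42732 in OPC arrays, so knockout arrays lay between the other groups. By limma 1 of these 5 was higher and 0 lower in knockout than in control, with a median log2 difference of 0.55. With the replicate block 2 were higher. In controls against OPCs 1 of the 5 was higher and 3 were lower. Neuron markers summed to 920 to 1206 in knockout and 1197 to 1939 in control arrays, microglia markers to 118 to 135 and 133 to 174, and endothelial markers to 217 to 297 and 146 to 272. Of the microglia markers Aif1, Cx3cr1 and Itgam were under 100 on all arrays, and so were Cldn5, Pecam1 and Cdh5 of the endothelium. The single Schwann cell marker with a probe set, Pmp2, was under 100 on all arrays.

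**Figure D4:**
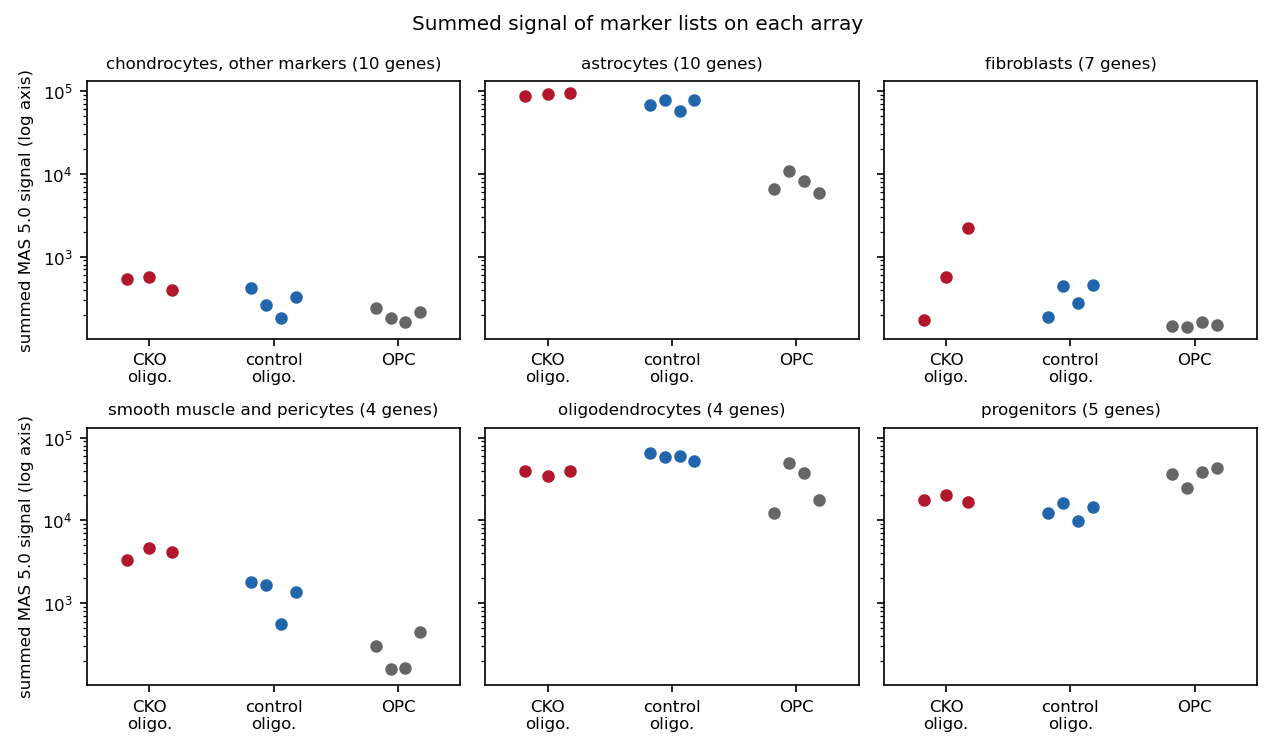
Summed MAS 5.0 signal (log axis) of 6 lists of cell type markers on each array, in knockout oligodendrocytes, control oligodendrocytes and OPCs; points are arrays. Astrocyte markers reach 86995 to 94458 in knockout arrays and 57115 to 78716 in control arrays, while the other chondrocyte markers stay under 565 on all arrays.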

How the data were processed

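RNA of 3 knockout oligodendrocyte, 4 control oligodendrocyte and 4 OPC samples was measured on 1 array each. Per the submitters' processing notes, the authors used GCOS 1.3 and MAS5. The deposited values are MAS 5.0 signal intensity per probe set on a linear scale, scaled by the authors to a target of 500, per the labels. This scaling assumes like total signal on all arrays. Arrays give no read depth, and their number limits the precision.

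Groups came from the sample titles. Of 45101 probe sets, 34958 carried 1 gene, 932 carried several and named none, and 9211 were unnamed. Symbols of 34754 were brought up to date by Entrez identifier. Probe sets with a signal of at least 200 on at least 3 arrays were kept, and the one with the highest mean log2 signal stood for its gene, which left 10069 genes. Log2(signal + 16) was fitted with a mean per group over all 11 arrays in limma 3.58.1 (R 4.3.3, eBayes with an intensity trend), and p-values were adjusted by Benjamini-Hochberg over all genes, at 0.05. Errors of log2 differences are standard errors of that fit, and folds are fitted. "At least" folds compare geometric means with signals under 100 set to 100, where every array of the lower group was under 100. Signals of different probe sets were not compared as levels. The fit was tested on simulated data.

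The 10 genes, the lists of other cartilage genes and of markers, and the tests were chosen with earlier results of these data known. Genes named beside the 10 are, per list, up to 4 in each direction past the threshold with the largest difference between knockout and control, for marker lists also the 2 brightest (not all are printed), and the 8 most like the mean of the 10. Sec24d, Sox9, Matn2, Matn4, Col9a2, Acta2, Col1a2, Col3a1, Bmp4 and Cspg4 fall outside this rule and were picked with their values in view.

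The sample titles number the replicates of all groups. Deviations from the group mean correlated by 0.242, 0.241 and 0.214 between knockout and control arrays of the same number. Arrays of different number gave -0.343 to 0.328, and that of knockout replicate 3 with control replicate 4, 0.328, was above all same-numbered values. Since all same-numbered values were over 0.1, these numbers were taken to pair the arrays. Arrays of different number passed that rule too, at 0.14, 0.159 and 0.328, and the labels name no pairs. The pairing is therefore an assumption, and all values with the block rest on it. The pairing enters as a replicate block in an alternative fit that holds only the groups compared and the numbers they share. Alternatives were other pseudocounts (1 and 64), no filter, the mean of a gene's probe sets, quantile normalization, a fit to the compared groups, the block, and leaving out each array, and, chosen after seeing the data, OPC replicates 2 and 3 only.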

Additional observations from a re-analysis of the deposited data

Results flagged for a closer look

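In each control and OPC group, the highest and lowest array were checked against the other arrays of that group for the 10 genes on the log2 scale, as the gap to the nearest array over the range of the group. Of 20 such groups 3 had a ratio above Dixon's 95% critical value for 4 arrays, where chance alone gives about 1 in 20. For Col2a1 in control oligodendrocytes replicate 3 was the lowest, at a ratio of 0.853, with a signal of 8.2 against 285 to 447. For Col9a1 in OPCs replicate 2 was the highest, at a ratio of 0.900, with 3911 against 971 to 1117. For Acan in OPCs replicate 2 was the lowest, at a ratio of 0.858, with 26.8 against 42.9 to 46.1, all of them under 100. OPC replicate 2 is the array that also stood apart in Myrf and Cspg4.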

How the results depend on the processing

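Between knockout and control oligodendrocytes 758 genes passed, against 1587 with only those groups in the fit, 2237 with the replicate block and 374 to 670 with 1 array left out. For the other cartilage genes the count of 18 became 33, 40 and 8 to 15 under the same changes. The median log2 difference of the 10 genes was 2.41, and 2.23 at a pseudocount of 64, 2.59 at 1, and 2.14 to 2.57 with 1 array left out. Knockout oligodendrocytes against OPCs gave 5098 genes and 3091 with the replicate block. Control oligodendrocytes against OPCs gave 5433, and its other counts stayed within 1.5 times of that. The replicate numbers do not pair OPCs with oligodendrocytes (correlations of same-numbered deviations from -0.117 to 0.193). With the block, Papss2 had a limma adjusted p of 0.0547 between control oligodendrocytes and OPCs. The sign turned for Col9a1 between control oligodendrocytes and OPCs, at 0.16 with the mean of its probe sets, 0.27 without OPC replicate 2 and 0.39 without control replicate 3 (-0.50 to 0.39 with 1 array left out), and for Chst11 between knockout oligodendrocytes and OPCs, at -0.33 without OPC replicate 2 (-0.33 to 0.25 with 1 array left out). It also turned for Col11a1 between knockout oligodendrocytes and OPCs, at -0.22 on OPC replicates 2 and 3 only. None of these had passed the test. The causes of these changes were not tested. Signals under 100 limit what can be said of Matn1, Acan, Cnmd, Papss2 and Col2a1, and on 3 of 4 arrays of Col11a2, in OPCs.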

Other observations

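Bmp4, a growth factor that starts cartilage formation in the embryo and that in the brain steers progenitors toward astrocytes, was not among the 10 genes and was picked out after its values were seen. It had signals of 4679, 6438 and 6835 in knockout oligodendrocytes, of 614, 821, 433 and 1268 in control oligodendrocytes, and of 10.5, 3614, 121 and 23.5 in OPCs. Every knockout array was above every control array. The log2 difference was 3.00 ± 1.26 (limma adjusted p = 0.191, 0.000431 to 0.421 over 14 alternatives, and 0.000684 with the replicate block), so the call rests on the fit. The OPC arrays spanned a wide range, with replicate 2 far above the others.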
